A study of Mus musculus with 5 samples.

Results

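The genes described here are those whose symbols begin with Psm, followed by a letter from a to g and a digit. They number 50 of the 27998 genes in the count matrices of sorted mouse bone marrow cells. By role they are 7 genes of the 20S alpha ring, 7 constitutive genes of the 20S beta ring, 3 immunoproteasome subunits, 2 tissue-restricted core subunits, 6 ATPases and 11 other subunits of the 19S particle, 3 chaperones of the 19S base, 4 chaperones of 20S assembly, 5 activator genes and 1 inhibitor gene. The remaining gene, Psmc3ip, is a recombination cofactor that shares the letters of the symbol and is no proteasome subunit. The alpha ring, constitutive beta ring and 19S subunits together make 31 genes and are called the constitutive subunits below.

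Wild-type C57BL/6 mice supplied the marrow, and 4 populations were sorted on surface antigens and profiled with 10x Genomics droplet RNA counting. LSK cells (Lin- SCA1+ KIT+) are the compartment that contains the haematopoietic stem cells. The other 3 gates took Lin- KIT+ SCA1- cells and split them by CD34 and CD16/32, with CD34 alone on the common myeloid progenitors (CMP), both on progenitors of granulocytes and monocytes (GMP), and neither on those of megakaryocytes and red cells (MEP). No treatment, transgene or mutation is named for any group, and the sources used here give no number, age or sex for the mice. Each population was 1 library, so that no difference had a replicate check and none was tested. All intervals are 95% intervals that cover counting error only.

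The proteasome is the protease that degrades ubiquitin-tagged proteins in the cytosol and nucleus. Its 20S core is a barrel of alpha and beta rings, in which the subunits encoded by Psmb5, Psmb6 and Psmb7 cut the chain, and the 19S particle recognises, unfolds and feeds in the substrate. Cells exposed to interferon, and many blood cells without it, build in Psmb8, Psmb9 and Psmb10 in place of those catalytic subunits, which gives the immunoproteasome and alters the peptides available to MHC class I.

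The start-site regions of some of these genes are shown first, and a link between their motifs and the levels given below was not tested. Sequences are from the RefSeq table of GRCm38.p6 (mm10), which held a start-site region of 300 bases, 250 before and 50 after the start, for 42 of the 50 genes. Capitals mark motif letters that a search on both strands found, and matches outside the printed bases are not shown. The first 4 stretches are the 150 bases before the start and lie outside annotated exons. Psmd11, Psmd2 and Psmd4 hold CCGGAAG, part of an ETS-family site, or its reverse CTTCCGG. Psmd14 holds GCGCNTGCG, part of a site of nuclear respiratory factor 1, in which N is any base. These 4 were chosen after the matches had been seen.
Psmd11, chr11:80428465-80428614, plus strand: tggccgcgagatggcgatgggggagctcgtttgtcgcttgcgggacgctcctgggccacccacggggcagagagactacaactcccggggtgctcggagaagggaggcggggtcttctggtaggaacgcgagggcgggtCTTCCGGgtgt
Psmd2, chr16:20651502-20651651, plus strand: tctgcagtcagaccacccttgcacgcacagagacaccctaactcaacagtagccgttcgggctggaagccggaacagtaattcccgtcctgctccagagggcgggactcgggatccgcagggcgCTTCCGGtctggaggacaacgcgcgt
Psmd4, chr3:95042615-95042764, minus strand: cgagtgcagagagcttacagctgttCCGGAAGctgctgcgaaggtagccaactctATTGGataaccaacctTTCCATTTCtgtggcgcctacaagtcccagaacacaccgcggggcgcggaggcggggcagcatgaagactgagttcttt
Psmd14, chr2:61711544-61711693, plus strand: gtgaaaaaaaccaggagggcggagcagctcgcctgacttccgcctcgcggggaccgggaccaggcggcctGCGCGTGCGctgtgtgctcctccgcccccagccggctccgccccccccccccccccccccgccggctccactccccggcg

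Psmd4 also carries the reverse of CCAAT and a match, on the other strand, to the letters GAAANNGAA that form part of an interferon-stimulated response element. Among the catalytic genes, Psmb5 and Psmb6 hold TGACNNNGC, the core of the antioxidant response element that factors of the Nfe2l family read. Psmb8 holds TTCNNNGAA, the form of a STAT site, and Psmb9 holds the reverse of CCAAT. The sites of 30 bases are given for these 4 genes, since they belong to the pairs compared further on. Those of Psmb8 and Psmb9 lie within the annotated spans of the genes, and no such site is shown for Psmb10, where none of the motifs was found.
Psmb5, chr14:54618023-54618052, minus strand: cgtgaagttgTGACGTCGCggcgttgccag
Psmb6, chr11:70525338-70525367, plus strand: ctaaagagagTGACGGAGCgctttacgacg
Psmb8, chr17:34198088-34198117, plus strand: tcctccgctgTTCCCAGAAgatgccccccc
Psmb9, chr17:34187321-34187350, minus strand: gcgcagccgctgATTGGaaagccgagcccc

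Of the 25 constitutive subunits in the RefSeq table, 10 (40%) held CCGGAAG, beside 12.9% of 17492 coding genes and 9.93% of all 27025 genes. The letters GCGCNTGCG were in 6 (24%), beside 9.68% of coding and 7.12% of all genes. The other motifs were nearer to their background: TGACNNNGC in 4 (16%, coding genes 14.8%, all genes 14%), CCAAT in 10 (40%, 42.3% and 41.1%), TTCNNNGAA in 1 (4%, 8.92% and 9.55%) and GAAANNGAA in 4 (16%, 9.43% and 9.76%). In the 5 genes of the immunoproteasome subunits with Psme1 and Psme2, CCGGAAG, GCGCNTGCG and TGACNNNGC had 0 matches, CCAAT matched in Psmb9, TTCNNNGAA in Psmb8 and GAAANNGAA in Psme1. The share among coding genes was added after the first counts had been seen. A match describes letters and is no evidence of binding.

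The labels list 5 samples, and the 2 of CMP held identical values and were counted as 1 sample. LSK gave 10870 cells, CMP 3713, GMP 8027 and MEP 6284, with 75167959, 26919088, 73362645 and 80273121 counted molecules (unique molecular identifiers, UMIs). Median depths were 5991.5, 6904, 9100 and 12578 UMIs, the same order as the constitutive subunits below, and the part of depth in those levels was not tested. Levels are a gene's UMIs per 1000000 UMIs of the library (CPM), and where 4 values follow each other they are in the order LSK, CMP, GMP and MEP. With each cell thinned to 2000 UMIs, the neutrophil elastase gene Elane was seen in 99.1% of GMP, 29.9% of CMP, 0.368% of LSK and 0.0159% of MEP cells. The erythroid carbonic anhydrase gene Car1 was seen in 97.5% of MEP, 7.94% of CMP, 0.856% of LSK and 0.112% of GMP cells. Between 36 and 130 cell barcodes were shared by each pair of libraries, where random draws of as many barcodes would share 31.6 to 118.

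Of the 50 genes, 49 had 3 or more UMIs in every library and 45 reached 50 CPM in at least 1. Psmb11, the core subunit of the thymus, had 0 UMIs in all 4 libraries. At 2000 UMIs per cell, 0 of 10870 LSK cells allows a share of cells with a UMI of up to 0.0276%, and the limits in CMP, GMP and MEP were 0.0816%, 0.0374% and 0.0477%. Psma8, the alpha subunit of germ cells, had 5.33 CPM (LSK), 6.69 (CMP), 5.25 (GMP) and 4.97 (MEP). Psmc3ip had 36.7, 47.2, 55.2 and 49.7 CPM in the same order.

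The constitutive subunits were lowest in LSK and highest in MEP. LSK had a summed level of 6357 CPM (6339 to 6375), CMP one of 9074 (9038 to 9110), GMP 9400 (9378 to 9422) and MEP 10906 (10884 to 10929). No intervals overlapped. The log2 ratio of LSK to CMP was -0.51 (-0.52 to -0.51), that of LSK to GMP -0.56 (-0.57 to -0.56) and that of LSK to MEP -0.78 (-0.78 to -0.77). CMP and GMP lay close together, at a log2 ratio of -0.05 (-0.06 to -0.04), and GMP was below MEP by a log2 ratio of -0.21 (-0.22 to -0.21).

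Of the 31 constitutive subunits, 29 had their lowest level in LSK, beside 33.3% of 3515 genes with 50 CPM in a library and a UMI in each. MEP was the highest library for 25 of them, beside 43.5% of those genes. The exceptions were Psma1, Psmb7 and Psmd8, highest in CMP, and Psma7, Psmb2 and Psmc3, highest in GMP. The median log2 ratio of LSK to MEP over the 31 was -0.76, and over 3350 genes with 50 CPM it was -0.18. For LSK to CMP the medians were -0.44 and -0.05, and for LSK to GMP they were -0.46 and 0.01. Proliferation genes differed in the same direction. In the list of G2/M genes, 16 of 16 genes were lower in LSK than in MEP with a median of -0.87, and in the S phase list 11 of 14 were, with a median of -0.34, beside 1935 of 3350 genes in all. The part of cell division in the proteasome levels was not tested.

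Alpha ring genes build the outer rings that gate the entry to the core. Their sum was 2292 CPM (LSK), 3386 (CMP), 3605 (GMP) and 3793 (MEP). Psma7 was highest in GMP, with 503 CPM (LSK), 798 (CMP), 958 (GMP) and 859 (MEP). Psma1 was the gene of this ring that differed least, with 280, 401, 379 and 350 CPM, and was highest in CMP. Psma2 had 303, 524, 504 and 543 CPM and Psma3 358, 527, 521 and 650, so both were lowest in LSK with the other 3 libraries nearer to each other. All 7 genes of the ring were lower in LSK than in each other library.

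Constitutive beta ring genes summed to 1963 CPM (LSK), 3045 (CMP), 3079 (GMP) and 3392 (MEP). Psmb3, a structural subunit, had 264 CPM (LSK), 509 (CMP), 552 (GMP) and 653 (MEP). It was the 1 gene past 2-fold between LSK and GMP, at a log2 ratio of -1.06 (-1.09 to -1.04), and it had -0.95 (-0.98 to -0.91) for LSK to CMP and -1.31 (-1.33 to -1.28) for LSK to MEP. Psmb2, a further structural subunit, had 326, 556, 563 and 544 CPM and was highest in GMP. Psmb1 and Psmb4 had 475 and 234 CPM in LSK and 670 and 448 CPM in MEP.

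The 19S ATPases form the ring that unfolds the substrate and summed to 710 CPM (LSK), 903 (CMP), 991 (GMP) and 1185 (MEP). Psmc2 had 104, 142, 143 and 245 CPM, so MEP stood above the other 3 libraries, with a log2 ratio of LSK to MEP of -1.23 (-1.27 to -1.19). Psmc3 differed in having its highest level in GMP, with 151, 179, 210 and 202 CPM. The remaining 5 ATPase genes were also lowest in LSK, and the log2 ratios of the 6 for LSK to GMP lay between -0.56 and -0.45.

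The 19S non-ATPase subunits, which include the ubiquitin receptor Psmd4 and the deubiquitinase Psmd14, summed to 1391 CPM (LSK), 1741 (CMP), 1725 (GMP) and 2537 (MEP). Here MEP stood apart: the log2 ratio of GMP to MEP was -0.56 (-0.57 to -0.55) for this sum, against -0.07 (-0.08 to -0.07) for the alpha ring. Psmd7, the partner of Psmd14 in the lid, had 205 CPM (LSK), 286 (CMP), 283 (GMP) and 553 (MEP), and its log2 ratio of LSK to MEP of -1.43 (-1.46 to -1.41) was the lowest among the 31. Psmd3 had 75, 82.9, 73.9 and 151 CPM, so that only MEP was set apart. Psmd4 likewise had 164, 178, 190 and 317 CPM. Psmd14 had 101, 152, 148 and 170 CPM, Psmd6 104, 147, 154 and 205 CPM and Psmd13 109, 131, 149 and 157 CPM, each lowest in LSK and highest in MEP. Psmd11 had 139, 172, 152 and 243 CPM and Psmd12 had 118, 144, 142 and 222, both with MEP above the rest. Psmd8 was the non-ATPase gene highest in CMP, with 182, 248.7, 229 and 217 CPM. Psmd1, a scaffold of the 19S base, had 96.3, 86.9, 89.5 and 148 CPM and was 1 of 2 constitutive subunits not lowest in LSK, Psmd3 being the other. Under median-of-ratios and TMM scaling, which move the median of all genes in comparisons with LSK by -0.54 to -0.31, Psmd1 was lower in LSK than in CMP and GMP too.

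**Figure D1:**
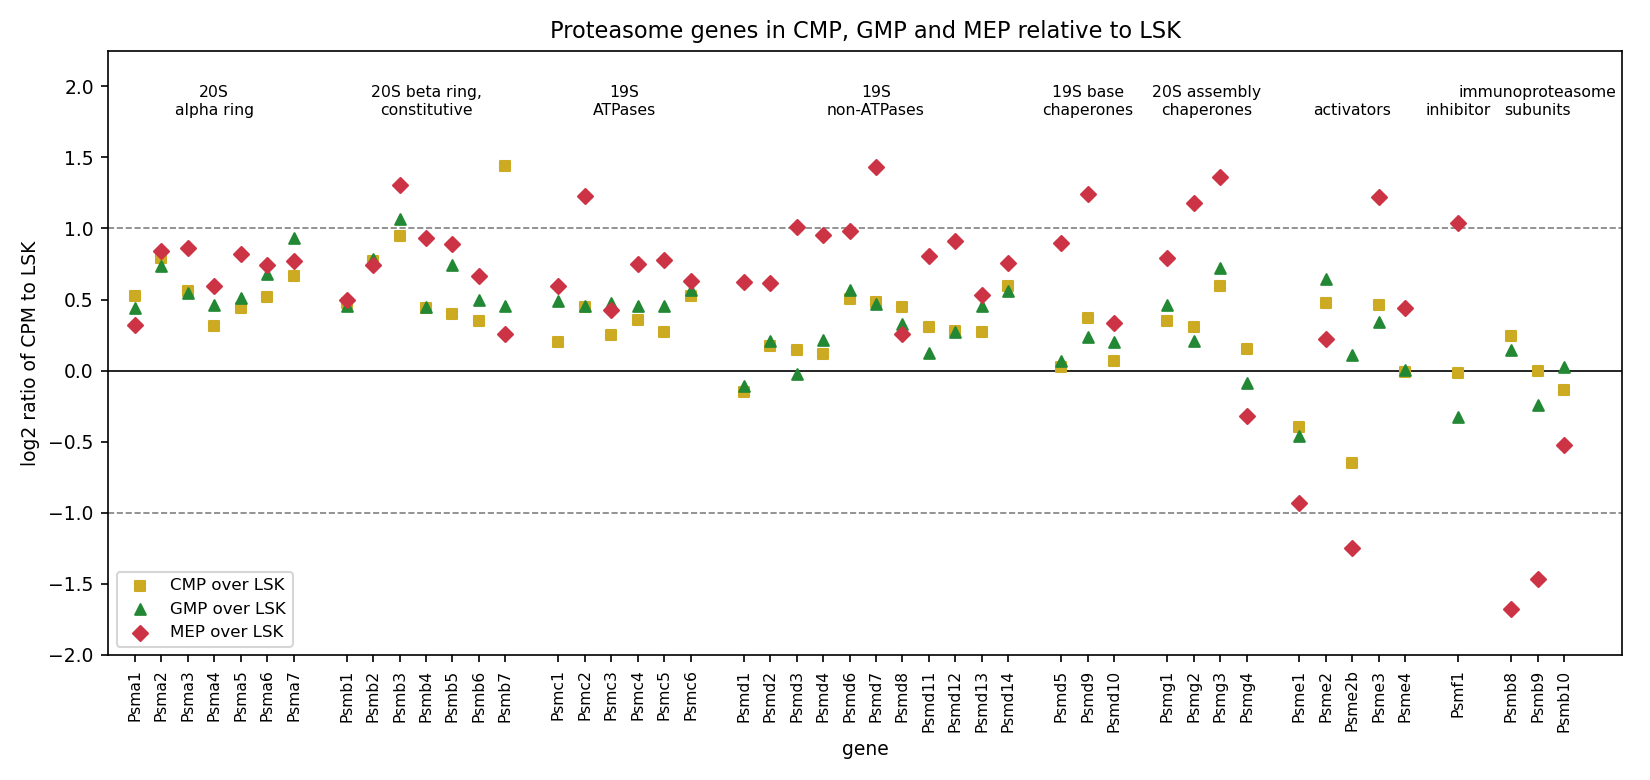
Each point is the log2 ratio of a gene's CPM in CMP (squares), GMP (triangles) or MEP (diamonds) to its CPM in LSK, for the 47 genes of the groups named along the top; the dashed lines mark ratios of 2. Most core and 19S genes lie above 0 in all 3 comparisons, Psmb7 stands out in CMP, and Psmb8 and Psmb9 lie below -1 in MEP.

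Counts of genes past a fold take those with at least 50 CPM in the library where they are higher. Between LSK and MEP, 8 of 44 genes at that level were at least 2-fold higher in MEP, beside 13.5% of all genes there, and 2 were at least 2-fold higher in LSK, beside 16.4% (either direction 29.9%). The 8 were Psmb3, Psmc2, Psmd3, Psmd7, the 19S base chaperone Psmd9, the activator Psme3 and the 20S assembly chaperones Psmg2 and Psmg3, and the 2 were Psmb8 and Psmb9. At 1.5-fold the count higher in MEP was 31 of 44, beside 29.7% of all genes, and the count in LSK was 3, beside 24%. Both directions together made 34 of 44, beside 53.7%. At 2-fold the count in MEP was thus near the background and the count in LSK below it, while at 1.5-fold the genes higher in MEP were well above it. The 2-fold counts depended on the scaling: with median-of-ratios factors 33 of 45 were higher in MEP (all genes 38%) and 1, Psmb8, in LSK (9.62%), and with TMM 31 were higher in MEP (33.3%) and 2 in LSK (10.4%).

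The other comparisons had few genes past 2-fold. LSK against CMP had 1 of 44, Psmb7 in CMP (all genes 2.72%), and 0 in LSK (6.12%; either direction 8.84%). LSK against GMP had 1 of 45, Psmb3 in GMP (7.49%), and 0 in LSK (13.3%; either direction 20.8%). CMP against GMP had 0 of 45, with 4.03% of all genes higher in CMP, 2.92% in GMP and 6.95% in either. CMP against MEP had 3 of 44, Psmb7, Psmb8 and Psmb9, all higher in CMP (11.3%), and 0 in MEP (10.5%; either direction 21.8%). GMP against MEP had Psmb8 and Psmb9 higher in GMP (12.2%) and Psmd3 and Psmd9 higher in MEP (12.1%), which is 4 in either direction (24.3%). With median-of-ratios factors, the counts were 5 in CMP for LSK against CMP (10.1%), 18 in GMP for LSK against GMP (27.3%), and 3 in CMP (10%) with 5 in MEP (14.7%) for CMP against MEP. With TMM they were 4 (8.32%), 12 (21.9%), and 3 (10.2%) with 1 (14.1%).

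At 1.5-fold, LSK against CMP had 7 genes higher in CMP (10.6%) and 0 in LSK (14.6%; either direction 25.2%). The 7 were Psma2, Psma7, Psmb2, Psmb3, Psmb7, Psmd14 and Psmg3. LSK against GMP had 9 higher in GMP (18.8%) and 0 in LSK (23.1%; either direction 41.9%). CMP against GMP had 1, Psmb7 in CMP (8.95%), and 0 in GMP (6.99%; either direction 15.9%). CMP against MEP had 3 higher in CMP (17.5%) and 11 in MEP (25.1%; either direction 42.6%), and GMP against MEP had 14 in either direction (44%). No proteasome gene at this level was thus 1.5-fold higher in LSK than in CMP or GMP. Across the 4 libraries the median ratio of the highest to the lowest level was 1.75 over the 49 genes with UMIs and 1.85 over 3515 genes, while 11 of the 45 proteasome genes with 50 CPM had a ratio of 2 or more, beside 42.6% of the 3515.

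Within the constitutive subunits, the make-up differed less than the sum for most genes. Each gene's share of the UMIs of the 31 was compared across libraries, and the ratio of its highest to its lowest share was under 1.5 for 27 of 31, with a median of 1.23. Psma3 held the steadiest share, 5.63% (LSK), 5.81% (CMP), 5.55% (GMP) and 5.96% (MEP), a ratio of 1.07. The 4 genes beyond 1.5 were Psmb7 at 2.72, Psmd3 at 1.76, Psmd7 at 1.68 and Psmd1 at 1.59. Psmd3 and Psmd7 took their highest share in MEP and Psmd1 in LSK.

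The immunoproteasome subunits followed another order. Psmb8, the counterpart of Psmb5, had 648 CPM (LSK), 767 (CMP), 716 (GMP) and 203 (MEP). MEP lay far below the other 3 libraries, with log2 ratios to MEP of 1.68 (1.65 to 1.70) for LSK, 1.92 (1.89 to 1.95) for CMP and 1.82 (1.8 to 1.85) for GMP. Psmb9, the counterpart of Psmb6, had 248 CPM (LSK), 248 (CMP), 210 (GMP) and 89.6 (MEP), and its log2 ratios to MEP were 1.47 (1.43 to 1.51), 1.47 (1.42 to 1.51) and 1.23 (1.19 to 1.27). Among the first 3 libraries the order depended on the scaling. By library total the log2 ratio of LSK to CMP was -0.24 for Psmb8 and 0.0023 (-0.04 to 0.04) for Psmb9, and with median-of-ratios factors it was -0.62 and -0.37. For LSK to GMP the same ratios were -0.15 and 0.24, and -0.68 and -0.30.

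Psmb10, the counterpart of Psmb7, differed much less, with 177 CPM (LSK), 162 (CMP), 180 (GMP) and 124 (MEP). Its log2 ratio of LSK to MEP was 0.52 (0.48 to 0.56), which median-of-ratios scaling took to 0.0042 and TMM to 0.08. The 3 subunits summed to 1073, 1176, 1106 and 416 CPM, and the sum was higher than in MEP by log2 ratios of 1.37, 1.5 and 1.41. Those 3 ratios kept their direction under both other scalings, at 0.85, 1.36 and 1.43 with median-of-ratios factors. The sum's ratios of LSK to CMP and to GMP, -0.13 and -0.04, were -0.51 and -0.58 with those factors. The small difference of CMP and GMP, 0.09, turned to -0.07 with median-of-ratios factors and -0.04 with TMM. Psmb8 and Psmb9 lie 9.96 kb apart on chromosome 17, at chr17:34197721-34201454 on the plus strand and chr17:34181987-34187764 on the minus strand (GENCODE M21, GRCm38), on either side of the peptide transporter gene Tap1, whereas Psmb10 lies at chr8:105935735-105938444. The annotated spans of Psmb9 and Tap1 overlap on opposite strands, and the sources used here do not say whether the counting used strand.

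**Figure D2:**
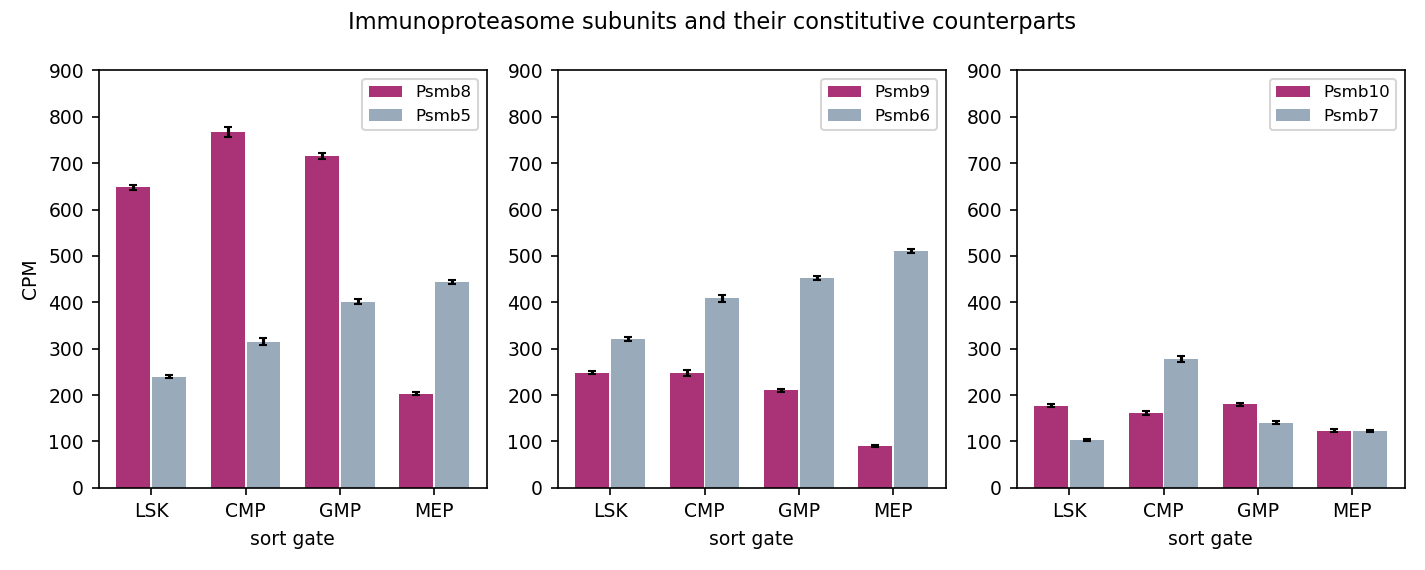
Bars give CPM of the immunoproteasome subunit (magenta) and its constitutive counterpart (grey) in each library, with 95% Poisson intervals of the count; levels of different genes are not comparable, since capture differs, and each gene is to be read across libraries. Psmb8 and Psmb9 are lowest in MEP, at 203 and 89.6 CPM, where Psmb5 and Psmb6 are highest, at 444 and 510 CPM.

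The catalytic counterparts followed other orders. Psmb5 had 240 CPM (LSK), 315 (CMP), 402 (GMP) and 444 (MEP), and Psmb6 had 321, 409, 452 and 510 CPM, so each stepped up through the 4 libraries. Psmb7 had 102, 277, 141 and 122 CPM and was high in CMP alone.

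Taken as a share of the UMIs of a pair, which does not depend on the library total, Psmb8 made up 73.0% (72.6 to 73.3) of Psmb8 and Psmb5 for LSK, 70.9% (70.3 to 71.4) for CMP, 64.1% (63.7 to 64.4) for GMP and 31.4% (31 to 31.8) for MEP. Psmb9 made up 43.6%, 37.7%, 31.7% and 14.9% of its pair. Both shares stood in the order LSK, CMP, GMP and MEP with no overlap of intervals. Psmb10 broke that order, with 63.4% (62.7 to 64.0) for LSK, 36.8% (35.9 to 37.7) for CMP, 56.1% (55.5 to 56.8) for GMP and 50.2% (49.5 to 50.9) for MEP. In CMP it is Psmb7 that was high, at 277 CPM, while Psmb10 had 162. Over all 3 pairs the share was 61.8% (61.5 to 62.1) for LSK, 54.0% (53.6 to 54.4) for CMP, 52.7% (52.4 to 52.9) for GMP and 27.9% (27.6 to 28.1) for MEP. Capture differs between genes, so the shares compare libraries and are not the make-up of proteasomes in a cell.

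**Figure D3:**
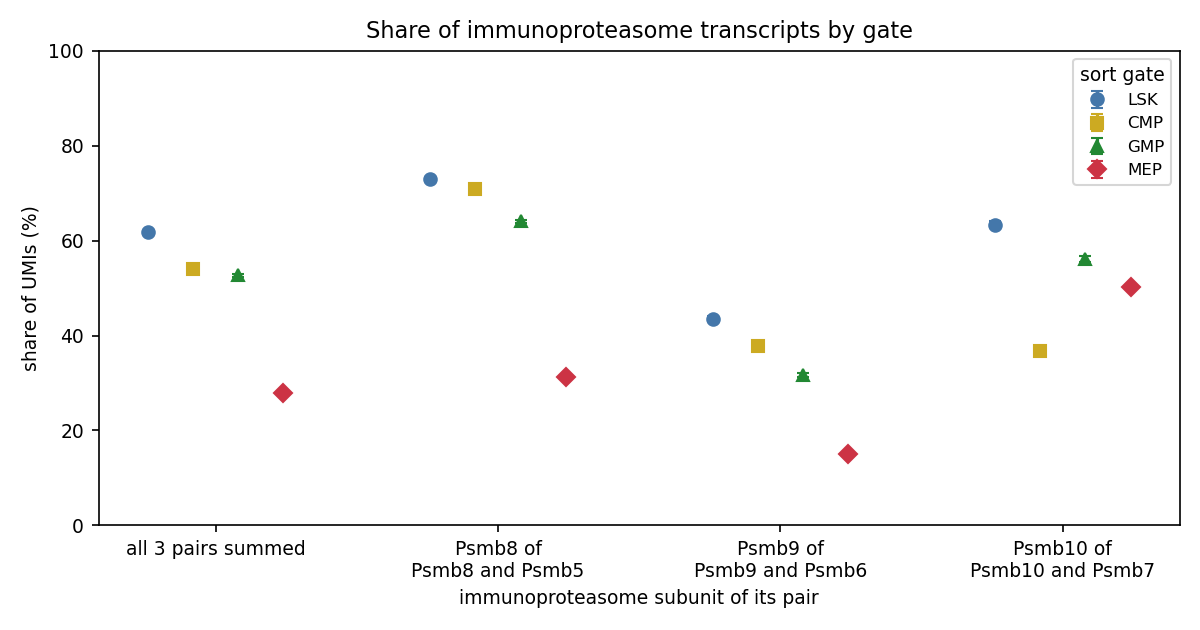
Points give the percent of UMIs that came from the immunoproteasome subunit, for the 3 pairs summed and for each pair, in LSK (circles), CMP (squares), GMP (triangles) and MEP (diamonds), with 95% Clopper-Pearson intervals that are mostly smaller than the symbols. MEP is lowest at 27.9% for the sum, 31.4% for Psmb8 and 14.9% for Psmb9, whereas for Psmb10 the CMP library is lowest at 36.8%.

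Medians over cells stood in the same order as the library sums. In the median cell the constitutive subunits took 60.9, 87.5, 92.9 and 106 of each 10000 UMIs, and 0 cells were without such a UMI. The immunoproteasome subunits took 10.1, 11.2, 10.7 and 4.06 of each 10000, and 1.51%, 2.32%, 0.71% and 5.01% of cells had none. Ranges that leave out 10% of cells at each end overlapped between most libraries. For the constitutive subunits they were 42.6 to 79.5 (LSK), 63.3 to 110 (CMP), 70.8 to 113 (GMP) and 80.9 to 128 (MEP). For the immunoproteasome subunits they were 4.43 to 16.4, 4.83 to 17.8, 5.64 to 16.5 and 1.035 to 9.40 in the same order. After thinning to 2000 UMIs, Psmb8 was seen in 69.7% of LSK cells, 74.8% of CMP, 74.6% of GMP and 35.2% of MEP cells, against 94.2%, 94.6%, 97.9% and 78.9% without thinning. For Psmb5 the thinned shares stepped up, 36.2%, 45.3%, 54.0% and 55.9%, and for Psmb6 they were 46.7%, 55.4%, 58.0% and 63.4%. In CMP, 36 cells had fewer than 2000 UMIs and were left out. No population here is known to lack these genes, so a background share from free RNA could not be set.

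Activators open the gate of the core without the 19S particle. Psme1 and Psme2 encode the 2 chains of the interferon-inducible activator PA28, and Psme3 encodes its nuclear relative. Psme1 had 403 CPM (LSK), 306 (CMP), 293 (GMP) and 211 (MEP), so it was highest in LSK, with a log2 ratio of LSK to MEP of 0.93 (0.91 to 0.96). Psme2, whose gene lies 5.91 kb away on chromosome 14, had its highest level in GMP instead, with 228, 318, 356 and 266 CPM. Of the UMIs of the 2 chains, Psme1 made up 63.9% (63.4 to 64.3) for LSK, 49.1% (48.3 to 49.8) for CMP, 45.1% (44.7 to 45.6) for GMP and 44.3% (43.8 to 44.8) for MEP. The ratio of LSK to GMP for Psme1, 0.46, was not stable to scaling, at -0.076 with median-of-ratios factors and 0.015 with TMM.

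Psme3 had 64.7 CPM (LSK), 88.9 (CMP), 82.1 (GMP) and 151 (MEP), a log2 ratio of LSK to MEP of -1.22 (-1.27 to -1.17). Of the UMIs of Psme1, Psme2 and Psme3 it made up 9.29% (LSK), 12.5% (CMP), 11.2% (GMP) and 24.0% (MEP). Psme4, the large activator PA200, had 17.8, 17.7, 17.8 and 24.1 CPM, and Psmf1, an inhibitor of the core, had 22.1, 21.8, 17.6 and 45.3 CPM. Both were highest in MEP, below the level of 50 CPM set for counting. Psme2b, a near-copy of Psme2, had 6.71, 4.27, 7.24 and 2.83 CPM, which is uncertain because reads of the 2 genes can be assigned to either.

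Chaperones of the 19S base, Psmd5, Psmd9 and Psmd10, summed to 169 CPM (LSK), 188 (CMP), 189 (GMP) and 309 (MEP). Psmd9 had 52.6, 67.8, 61.9 and 125 CPM, with a log2 ratio of GMP to MEP of -1.01 (-1.06 to -0.96). Psmd5 had 63.5, 64.5, 66.5 and 118 CPM, whereas Psmd10 had 52.8, 55.4, 60.8 and 66.7 CPM and stood apart in no library. The 20S assembly chaperones split. Psmg2 had 55.3, 68.4, 64.1 and 125 CPM and Psmg3 had 53.4, 80.7, 88.0 and 137 CPM, both highest in MEP, and Psmg1 had 70.2, 89.3, 96.7 and 122 CPM. Psmg4, the partner of Psmg3, had 130, 144, 122 and 104 CPM and was lowest in MEP by library total, with a log2 ratio of LSK to MEP of 0.32 that turned to -0.20 with median-of-ratios factors and -0.12 with TMM.

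Genes that act with the proteasome but lie outside the symbol rule went both ways. Of 14 such genes 13 were measured and 9 of those were lower in LSK than in MEP. Among the 10 with 50 CPM, 2 were at least 2-fold higher in MEP (all genes 13.5%) and 1 was 2-fold higher in LSK (16.4%). The median log2 ratio of LSK to MEP was -0.39, beside -0.18 for all genes. With median-of-ratios factors or TMM, 5 were counted as 2-fold higher in MEP (38% and 33.3%) and 0 in LSK. The maturation factor Pomp had 356, 474, 525 and 538 CPM and the ubiquitin receptor Adrm1 79.1, 76.9, 86.8 and 153 CPM, both highest in MEP as most subunits were. The 19S-bound thioredoxin Txnl1 had 178, 209, 198 and 463 CPM and Pithd1 29.1, 33.4, 34.8 and 74.9 CPM. Zfand5, an activator of the 26S particle, had 198, 127, 61.8 and 73.9 CPM and was the gene higher in LSK. Shfm1, a small lid subunit named outside the rule, had 515, 939, 1126 and 458 CPM and was highest in GMP.

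Ubb, a polyubiquitin gene, was lowest in MEP, unlike the constitutive subunits, with 3677 CPM (LSK), 3421 (CMP), 2887 (GMP) and 2054 (MEP). Rps27a, which encodes ubiquitin fused to a ribosomal protein, had the opposite order with 5850, 6542, 7186 and 7536 CPM.

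Among known regulators of proteasome genes, Nfe2l1, which drives subunit transcription when proteasome activity is low, had 29.9, 21.4, 17.6 and 16.6 CPM, an order opposite to that of the constitutive subunits. Nfe2l2, which acts in oxidative stress, had 70.3, 57.3, 55.3 and 139 CPM and was highest in MEP. Stat3 had 71.9, 32.7, 23.1 and 8.00 CPM. Of the 8 regulators 3 reached 50 CPM in LSK or MEP, and Stat3 was the 1 of those at least 2-fold higher in LSK (all genes 16.4%). Below that level, Maff had 9.53, 20.4, 0.954 and 0.573 CPM. Mafg, a partner of the Nfe2l factors, had 55.6, 48.9, 53.3 and 51.2 CPM.

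Of the genes of MHC class I presentation 8 of 11, and of those of the interferon response 15 of 16, had a lower level in MEP than in LSK. Of the 3350 genes with 50 CPM in LSK or MEP, 1415 had. That level was reached by 9 of the presentation genes and 6 of the interferon genes. By library total, LSK had at least 2-fold more of 6 of those 9 presentation genes (all genes 16.4%) and MEP of 0 (13.5%). The median log2 ratio of LSK to MEP over the 11 was 1.13. They were B2m, H2-K1, H2-D1, Tap1, Tap2 and Tapbp. With median-of-ratios factors or TMM, Tap2 alone of the 6 was still 2-fold higher in LSK (all genes 9.62% and 10.4%). Canx was 2-fold higher in MEP (38% and 33.3%), and the median was 0.62 and 0.70. B2m, the light chain of class I, had 3662 CPM (LSK), 2917 (CMP), 2118 (GMP) and 1820 (MEP). Tap1, between Psmb8 and Psmb9 in the genome, had 87.6, 49.4, 37.2 and 36.9 CPM, so GMP and MEP were alike for Tap1 and far apart for both proteasome genes. Calr, a chaperone of class I loading, had 582, 1298, 1803 and 593 CPM and was highest in GMP. From GMP to MEP, 8 of the 11 reached 50 CPM. Of those 8, 2 were at least 2-fold higher in GMP (all genes 12.2%), Calr and the disulfide isomerase Pdia3. Below that level, Tapbpl and Erap1 had log2 ratios of GMP to MEP of 1.485 and 1.08. The median over the 11 was 0.50, beside -0.21 for all genes with 50 CPM.

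In the interferon list of 16 genes, which holds Psme1 and Psme2, 6 reached 50 CPM. Of those 6, 4 were at least 2-fold higher in LSK than in MEP (all genes 16.4%). The median log2 ratio was 1.98 over the 16. Those 4 were Irf1, Irf2, Irf8 and Ifitm3, and with median-of-ratios factors or TMM, under which fewer genes reach 50 CPM in LSK, Irf2 and Ifitm3 were counted. Irf1, a known activator of immunoproteasome genes, had 61.0 CPM (LSK), 35.7 (CMP), 13.4 (GMP) and 3.10 (MEP). Between GMP and MEP the list had a median of 0.02. Of its 4 genes with 50 CPM, 1 was past 2-fold in GMP (all genes 12.2%), Irf8, which had 57.4, 624, 495 and 3.10 CPM. Below that level, the log2 ratio of GMP to MEP was 2.11 for Irf1, 1.415 for Gbp2 and -1.18 for Isg15. Irf8 and Psmb8 were both lowest in MEP and higher in CMP and GMP. By library total, LSK was near CMP and GMP for Psmb8 and far below them for Irf8. A relation between these genes was not tested.

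Clustering of 27008 cells of the 4 libraries on variable genes, with the proteasome, MHC class I and interferon genes left out, gave 24 clusters. There were 23 combinations of a cluster and a library with at least 50 cells. Library sums mix these clusters, so each level was also taken within them. The constitutive sum lay between 5330 and 7226 CPM in the 7 LSK clusters, between 7445 and 9456 in the 5 of CMP, between 7883 and 9956 in the 6 of GMP and between 8530 and 13116 in the 5 of MEP. Every LSK cluster of that size was thus below every one of the other libraries. The lowest was cluster 2, led by Clec1a, Nupr1, Mmrn1 and the cell cycle inhibitor gene Cdkn1c, at 5330 CPM, and the highest in LSK was cluster 9, led by histone genes such as Hist1h2ap, at 7226 CPM. The summed G2/M list was 237 CPM in cluster 2 and 1896 in cluster 9, and the median cell had 4768 and 9945 UMIs. Cluster 13 had the highest G2/M sum in LSK, 6418 CPM, and the deepest cells, with a median of 10352 UMIs. Its constitutive sum was 6607 CPM and its summed S phase list 1045 CPM. In the LSK cells of cluster 16 the constitutive sum was 7052 CPM, the G2/M sum 710 and the S phase sum 2614. The S phase sum was 2959 CPM in cluster 9 and 962 in cluster 2. In cluster 18 it was 631 CPM, beside a constitutive sum of 7043 CPM. The part of division and depth in these levels was not tested.

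Psmb8 was the gene with the widest range over the 23 combinations, from 65.1 CPM in MEP cluster 5 to 1517 CPM in CMP cluster 19, a ratio of 23.3. Psmb9 came next, from 48.5 to 521 CPM in the same 2 combinations. Over 46 genes with enough UMIs the median ratio of highest to lowest was 2.85, and Psmb1 had the narrowest range at 1.66. The chaperone Psmg1 had the third widest, from 27.2 CPM in CMP cluster 19 to 161 CPM in MEP cluster 20, a ratio of 5.91. Cluster 19 held 94 CMP cells and was led by Batf3, Ifi205 and Cd209a, genes of dendritic cells, and Psmb8 was 85.3% (82.7 to 87.7) of its pair there. Psme2 reached its highest level in it too, 637 CPM. Psmb8 made up 66.8 to 74.9% of its pair over the LSK clusters, 58.4 to 85.3% in CMP, 59.1 to 65.9% in GMP and 12.2 to 56.7% in MEP.

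**Figure D4:**
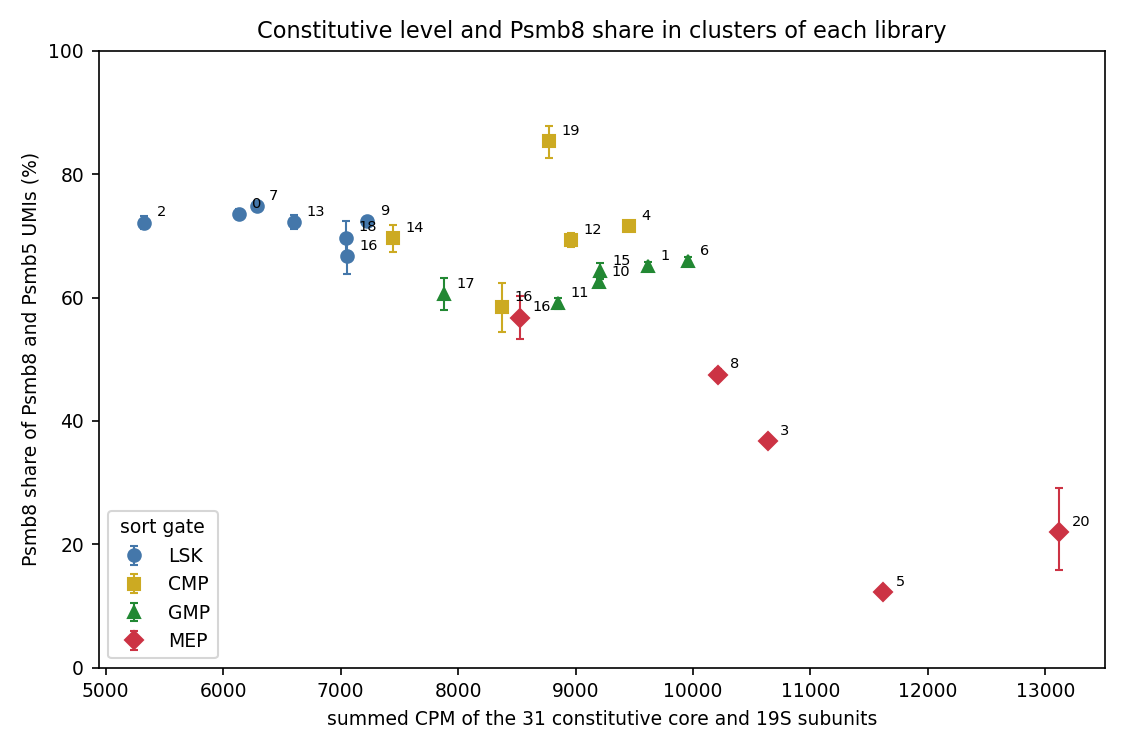
Each point is a cluster within 1 library with 50 or more cells, numbered as in the text; the horizontal axis is the summed CPM of the 31 constitutive subunits and the vertical axis the percent of Psmb8 among Psmb8 and Psmb5 UMIs, with 95% Clopper-Pearson intervals. LSK clusters lie at the left between 66.8 and 74.9%, and MEP clusters run down to 12.2%.

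Within MEP the subunits separated the clusters. The 3 largest held 2040 (cluster 3), 1752 (cluster 8) and 1835 (cluster 5) cells, and were led by Kcng2 and Car1, by Csrp3 and Optn, and by the globin genes Hba-a1 and Hbb-bs. Summed globin genes were 40.8, 52.7 and 550 CPM, so cluster 5 was the one of these 3 high in globin. The small cluster 20, of 59 cells, had 384 CPM of globin genes and 118 CPM of Psmb8, which was 22.0% (15.9 to 29.1) of its pair. Psmb8 had 258 CPM in cluster 3, 363 in cluster 8 and 65.1 in cluster 5. Against cluster 3, Psmb8 in cluster 5 was 3.96-fold lower, at a log2 ratio of -1.98 (-2.06 to -1.91), and against cluster 8 it was 5.57-fold lower, at -2.48.

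Psmb9 had 107, 135 and 48.5 CPM in clusters 3, 8 and 5, and Psmb10 had 135, 144 and 103 CPM, so Psmb10 again differed least. Psmb5 had 443, 400 and 467 CPM and Psmb6 514, 471 and 529 CPM. Psmb8 was 36.8% of its pair in cluster 3, 47.5% in cluster 8 and 12.2% in cluster 5. Over the 31 constitutive subunits the median log2 ratio of cluster 5 to cluster 3 was 0.15, beside 0.05 for all genes. The ratios ran from 0.0021 to 0.36, and the intervals of Psma3, Psma6 and Psmd8 included 0. Against cluster 8 the median was 0.22, beside 0.10, and the ratios ran from -0.046 to 0.47. Psmb8 and Psmb9 were the 2 proteasome genes at least 2-fold lower in cluster 5 in both comparisons, where 1.24% and 3.41% of all genes were, and 0 were 2-fold higher (1.42% and 3.73%). The median cell had 13658, 7555 and 16881 UMIs and the G2/M list summed to 2988, 964 and 3276 CPM. The part of depth and division in these differences was not tested. The choice of these 3 clusters and their order by globin followed after their values had been seen.

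**Figure D5:**
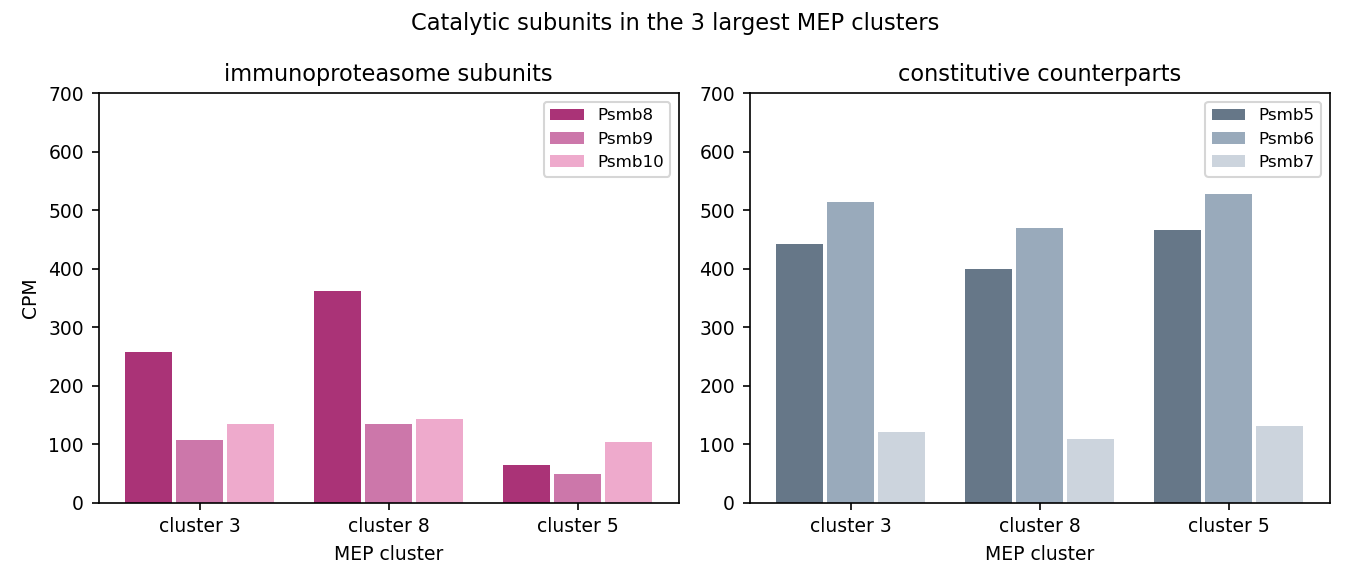
Bars give CPM of the 3 immunoproteasome subunits (left) and their constitutive counterparts (right) in the 3 largest MEP clusters, cluster 5 being the one high in globin. Psmb8 is 65.1 CPM in cluster 5 and 258 and 363 CPM in the others, while Psmb5 and Psmb6 are highest in cluster 5.

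Cells led by the platelet genes Pf4 and Gp1bb, cluster 16, came from 3 libraries at resolution 1. Its LSK cells depended on the resolution, with 155 at resolution 1, 36 at 0.5 and 34 at 2, whereas 121 or 122 CMP cells and 193 or 197 MEP cells were in it each time. Psmb8 made up 66.8% (63.8 to 69.6) of its pair in the 155 LSK cells, 58.4% (54.4 to 62.3) in the 122 CMP cells and 56.7% (53.2 to 60.2) in the 197 MEP cells of it. The intervals of CMP and MEP overlapped, unlike those of the whole libraries. The constitutive sum was 7052, 8371 and 8530 CPM in the same order, and the G2/M list summed to 710, 3112 and 1468 CPM.

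Psmb7 was high in every CMP cluster of at least 50 cells. In cluster 16, its level was 107 CPM among LSK cells, 257 among CMP cells and 91.3 among MEP cells. Over all clusters it lay between 204 and 287 CPM in CMP, between 77.9 and 121 in LSK, between 114 and 157 in GMP and between 91.3 and 204 in MEP, where the highest was cluster 20 with 59 cells. After thinning, 41.3% of CMP cells had a Psmb7 UMI, beside 17.5% of LSK, 23.4% of GMP and 20.9% of MEP cells. Its log2 ratio of LSK to CMP was -1.44 (-1.48 to -1.39) and that of CMP to MEP 1.18 (1.14 to 1.22). Gate and library cannot be told apart here. In LSK barcodes of 10 to 100 UMIs, far below the depth of cells, Psmb7 had 464 CPM, and its level there was not tested against that of CMP. The share of Psmb10 in its pair, 34 to 39.1% over the CMP clusters and 48.8 to 58.3% over those of GMP, was lower in CMP where Psmb7 was high.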

How the data were processed

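The authors deposited unnormalized UMI counts for each gene and barcode. Per the submitters' processing notes, mm10 was the build, Cell Ranger 2.0.0 and CASAVA 1.8.2 were among the tools, and so was Seurat 2.3.0. The 5 samples in the labels gave 4 libraries, since the 2 CMP samples held identical matrices of 3738 barcodes and were counted as 1 sample. The design text states 12185 CMP cells, and the rest were not analysed here. LSK barcodes with 2110 or more UMIs were taken. Cells with 500 genes or more and at most 10% mitochondrial UMIs were kept.

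Counts were summed per library and divided by its total (CPM). Sums have exact Poisson, ratios exact conditional binomial and shares Clopper-Pearson intervals. With 1 library per population there was no test. A gene counted as past a fold where the higher library had 50 CPM and the ratio was 2 (or 1.5). The rule and the intervals of ratios were run on simulated Poisson counts with 200 genes changed 3-fold. Those counts had no variation between libraries, so they cannot show how far a replicate would differ. Python 3.11.15 and scipy 1.17.1 were used. Doublets stayed in the sums. Before clustering, the highest scores against simulated pairs, 0.8% per 1000 cells, were removed; Leiden clustering (leidenalg 0.10.2) used 2000 genes, 30 components, 15 neighbours and resolution 1. TMM factors are from edgeR 4.0.16. Named were the catalytic pairs, the activators and inhibitor, all genes past 2-fold, the 3 largest ratios in each direction of each comparison, and of other lists the 4 highest and those past 2-fold; further subunits and list genes, cluster leaders, the low-UMI barcodes and the printed regions were added after their values were seen. The genes and lists were chosen with earlier results of these data known. A few genes of the lists are not reported here.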

Additional observations from a re-analysis of the deposited data

Results flagged for a closer look

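In the LSK matrix, 6346 barcodes of 10 to 100 UMIs, far below the cells, held 146657 UMIs, of which the constitutive subunits made up 7180 CPM (6753 to 7627), above the limit that a count of 0 allows (20.5 CPM). Psmb7 had 464 CPM there from 68 UMIs, 4.53-fold its level in LSK cells and the 1 of 31 constitutive subunits at 2-fold or more, beside 3.03% of 3234 genes. Psmb8 made up 65.7% (57.3 to 73.5) of its pair and Psmb10 19% (11.3 to 29.1). The source of these UMIs was not tested.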

How the results depend on the processing

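No paired analysis was possible because each population was 1 library. Of the 127 alternative values of the main results, 67 stayed and 60 moved. A value stayed if within its counting interval, and a count of genes if within 1.5 times. For named genes 153 stayed, 72 moved and 9 reversed. Not among these 9 are Psmg4 (LSK to MEP) and the immunoproteasome sum (CMP to GMP), whose ratios also turned, as given above. Ratios are log2 in the order LSK/CMP, LSK/GMP, LSK/MEP, CMP/GMP, CMP/MEP and GMP/MEP, and the constitutive sum kept its direction throughout. It was -0.89, -1.10, -1.30, -0.21, -0.41 and -0.19 with median-of-ratios factors, -0.83, -1.01, -1.21, -0.18, -0.39 and -0.20 with TMM, and -0.47, -0.48, -0.72, -0.011, -0.25 and -0.24 without ribosomal and mitochondrial genes. The median over subunits was -0.44, -0.46, -0.76, -0.038, -0.36 and -0.20. LSK cells of 4000 or more UMIs gave -0.50, -0.55 and -0.76, and removing doublets gave -0.56 for LSK/GMP. Without the 20 most abundant genes, chosen after seeing the data, the first 4 ratios were -0.50, -0.54, -0.76 and -0.044, and GMP/MEP was -0.22. Genes past 2-fold, 1, 1, 10, 0, 3 and 4 by library total, became 5, 18 and 34 in the comparisons with LSK and 8 in CMP/MEP with median-of-ratios factors, 4, 12 and 33 with TMM, and 0 in LSK/GMP and 1 in CMP/GMP without ribosomal and mitochondrial genes. At 1.5-fold they were 7, 9, 34, 1, 14 and 14. The immunoproteasome share was 61.5%, 58.3%, 52.0% and 23.5% without Psmb10 and Psmb7, also added later, and as a mean over cells 53.4% in CMP and 30.1% in MEP. Psmb8 was seen in 91.3%, 93.6%, 92.7% and 54.2% of cells thinned to 4000 UMIs. The lowest MEP cluster had 14.5% at resolution 0.5 and 5.31% at 2. Reversed were Psmd1 (LSK/CMP -0.23 and -0.17; LSK/GMP -0.43 and -0.34), Psmb10 (LSK/CMP -0.24 and -0.18) and Psmb9 (LSK/GMP -0.30 and -0.21) with median-of-ratios and TMM factors, and Psme1 (LSK/GMP -0.076) with the former; the shift of the scaling itself accounts for these.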
